A study of Mus musculus with 13 samples.

Results

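Caveolae, fenestral diaphragms and the markers of capillarized endothelium were followed through 10 genes in liver endothelial cells of mice raised with and without a microbiota. The genes were taken by symbol from the deposited count table: Cav1, Cav2, Plvap, Emcn, Cd34, Ehd3, Ly6a, Ly6c1, Apln and Aplnr. All 10 were found among the 24421 symbols of the table, and all 10 were abundant enough to be tested. The libraries came from wild-type mice, 7 from conventionally raised animals (CONV-R, with a normal microbiota) and 6 from germ-free animals (GF, with no live microbes). Bulk RNA sequencing of poly(A) RNA was used, with library totals of 7590320 to 32869515 counts (CONV-R) and 23407168 to 35478115 counts (GF). The labels leave out age, sex, the way the cells were isolated and whether each library is 1 animal. The p-values therefore measure the spread between these libraries, which may be technical.

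Caveolae are flask-shaped pits of the plasma membrane that are built by caveolins and cavins and are abundant in continuous capillary endothelium. Sinusoidal endothelial cells of the liver are instead perforated by open pores, the fenestrae, which in the healthy adult organ lack the thin diaphragm that PLVAP forms across fenestrae elsewhere. Loss of this open state, with a basement membrane and capillary-type surface proteins, is called capillarization and is known from liver fibrosis.

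Cav1 and Cav2 are neighbours on chromosome 6 of the mouse build GRCm38, on the same strand. Cav2 spans 17281185 to 17289130 and Cav1 spans 17306335 to 17341328, with 17204 bases between them. Their promoters are shown because Cav2 was the gene of the set that passed the test and Cav1 is its neighbour and partner, and that of Ehd3 because its level followed that of Cav2 most closely within groups. Each window holds 250 bases before and 50 bases after the annotated start, taken from RefSeq on GRCm38.p6: chr6:17280935-17281234 for Cav2, chr6:17306085-17306384 for Cav1 (the first of 2 annotated starts) and chr17:73804591-73804890 for Ehd3, all on the plus strand. Capitals mark matches, on either strand, to the GC box GGGCGG or the AP-1 motif TGANTCA.
Cav2: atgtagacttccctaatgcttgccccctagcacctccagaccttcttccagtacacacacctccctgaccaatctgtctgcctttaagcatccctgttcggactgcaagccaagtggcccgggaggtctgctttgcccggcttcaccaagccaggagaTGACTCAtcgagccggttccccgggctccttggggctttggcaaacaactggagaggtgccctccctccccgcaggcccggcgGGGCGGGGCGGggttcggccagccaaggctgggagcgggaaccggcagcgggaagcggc
Cav1: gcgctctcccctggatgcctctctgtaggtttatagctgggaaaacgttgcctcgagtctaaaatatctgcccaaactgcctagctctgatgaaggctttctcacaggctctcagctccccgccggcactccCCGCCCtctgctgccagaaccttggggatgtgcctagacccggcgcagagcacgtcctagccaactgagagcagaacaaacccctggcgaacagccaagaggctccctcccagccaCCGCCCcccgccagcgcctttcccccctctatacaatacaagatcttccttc
Ehd3: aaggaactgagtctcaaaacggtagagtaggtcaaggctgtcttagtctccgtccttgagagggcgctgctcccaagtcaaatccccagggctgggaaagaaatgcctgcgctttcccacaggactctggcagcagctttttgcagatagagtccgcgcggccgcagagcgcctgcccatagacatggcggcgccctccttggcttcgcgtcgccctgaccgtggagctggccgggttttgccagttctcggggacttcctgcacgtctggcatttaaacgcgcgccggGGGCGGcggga
The Cav2 window held 2 overlapping GC boxes and 1 AP-1 match, the Cav1 window 2 GC boxes, and the Ehd3 window 1 GC box downstream of the start. A GC box was found in 35.7% and the AP-1 motif in 7.81% of 32851 promoter windows of that length. Of the 7 genes of the set with an entry, 4 had a GC box in at least 1 window (the fourth was Apln), 1 had the AP-1 motif, and none matched the FOX motif TGTTTAC (3.65% of all windows) or the GATA motif AGATAA (11.2%). GC content was 64.3% for Cav2, 59.3% for Cav1 and 61.7% for Ehd3, above the median of 52.7% over all windows, and 41% for Emcn. These matches describe letters in the windows only.

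Of the 10 genes, Cav2 rose by 1.49-fold in GF libraries, 0 fell, and the other 9 did not pass the threshold. That threshold was 0.05 for p-values of the edgeR quasi-likelihood test, adjusted by Benjamini and Hochberg over all tested genes. Over all 13915 tested genes 24.1% passed, 11.4% higher and 12.7% lower in GF, so 1 of 10 is no more than the background. The median log2 fold change of the set was 0.21, against -0.01 over all tested genes. The genes of the set were chosen with earlier results of these data known, and the list itself was not tested.

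The caveolins are the membrane-inserted proteins that shape the caveolar bulb, with caveolin-1 required for it and caveolin-2 as its partner. Cav2 stood at 124, 198 and 287 CPM in the lowest, median and highest CONV-R library (CPM, counts per 1000000 of the TMM-scaled library), and at 304, 312 and 358 CPM in GF. Every GF value of Cav2 exceeded the highest CONV-R value. Groups did not overlap for 1 of the 10 genes and for 10.3% of all tested genes, of which GF was higher in 5.94% and lower in 4.32%. For Cav2 the log2 fold change was 0.58 ± 0.18 (SE; adjusted p = 0.0328, edgeR). The group means were 214 ± 67.8 CPM in CONV-R (SD, n = 7) and 319.6 ± 20.2 in GF (SD, n = 6), with a coefficient of variation of 31.7% in CONV-R and 6.32% in GF. Cav2 no longer passed once CONV-R 5, CONV-R 6, CONV-R 7 or any single GF library was removed, with adjusted p from 0.0557 to 0.0798 and log2 fold changes from 0.51 to 0.59 (edgeR).

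Cav1 stood at 43.1, 72.1 and 97.7 CPM in the lowest, median and highest CONV-R library, and at 76.6, 85.6 and 114 CPM in GF. The groups overlapped, with 1 GF library above the CONV-R range. The fitted change was 0.34 ± 0.17 on the log2 scale (adjusted p = 0.167, edgeR), with a 95% interval from -0.04 to 0.71. Cav2 had more counts than Cav1 in every library, by 2.04 to 3.69 times in CONV-R and 3.15 to 4.09 times in GF. The lowest of these ratios was that of CONV-R 1.

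EHD3 belongs to the family of membrane-bending ATPases that includes EHD2, which sits at the caveolar neck, and is itself known for endosomal recycling. Its gene, on chromosome 17 from 73804841 to 73832093, had the highest CPM of the set in every library. Ehd3 stood at 3164, 4158 and 5967 CPM in the lowest, median and highest CONV-R library and at 4136, 4997 and 5451 CPM in GF. The GF libraries all lay within the CONV-R range. The log2 fold change of 0.08 ± 0.15 (adjusted p = 0.729, edgeR) had a 95% interval from -0.24 to 0.40.

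Plvap, on chromosome 8 from 71497753 to 71511806, encodes the protein of fenestral and caveolar diaphragms. It stood at 183, 206 and 371 CPM in the lowest, median and highest CONV-R library and at 281, 349 and 528 CPM in GF. In CONV-R, libraries 2, 3 and 4 held 311 to 371 CPM and the other 4 held 183 to 206 CPM, so that every GF library lay above those 4 and overlapped the other 3. The highest value of all, 528 CPM, was that of GF 9, and 2 GF libraries exceeded the CONV-R range. The log2 fold change of 0.53 ± 0.20 missed the threshold (adjusted p = 0.0691, edgeR). It was past it with DESeq2 (adjusted p = 0.0425) and without CONV-R 2 (0.63, adjusted p = 0.0332) or CONV-R 3 (0.61, adjusted p = 0.0404, edgeR). These were the only 2 of 13 fits with 1 library left out in which Plvap passed. Over those 13 fits its log2 fold change ranged from 0.39 to 0.63, and adjusted p reached 0.182 (edgeR). Plvap also missed the threshold with limma-voom (0.42, adjusted p = 0.11) and with library totals (0.43, adjusted p = 0.106, edgeR).

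Endomucin and CD34 are mucin-like sialoglycoproteins of the endothelial surface, and CD34 marks continuous capillaries more than sinusoids. Emcn lies on chromosome 3 from 137341062 to 137431069 and Cd34 on chromosome 1 from 194938821 to 194961292. Emcn stood at 140.0, 173 and 234 CPM in the lowest, median and highest CONV-R library, and at 184, 200.1 and 226 CPM in GF. All GF values lay inside the CONV-R range, with a log2 fold change of 0.18 ± 0.12 (adjusted p = 0.295, edgeR). Cd34 stood at 33.4, 38.6 and 49.4 CPM in the lowest, median and highest CONV-R library and at 24.5, 36.2 and 42.9 CPM in GF. The groups overlapped, although 3 GF libraries lay below the CONV-R range, and the log2 fold change was -0.18 ± 0.13 (adjusted p = 0.309, edgeR).

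**Figure D1:**
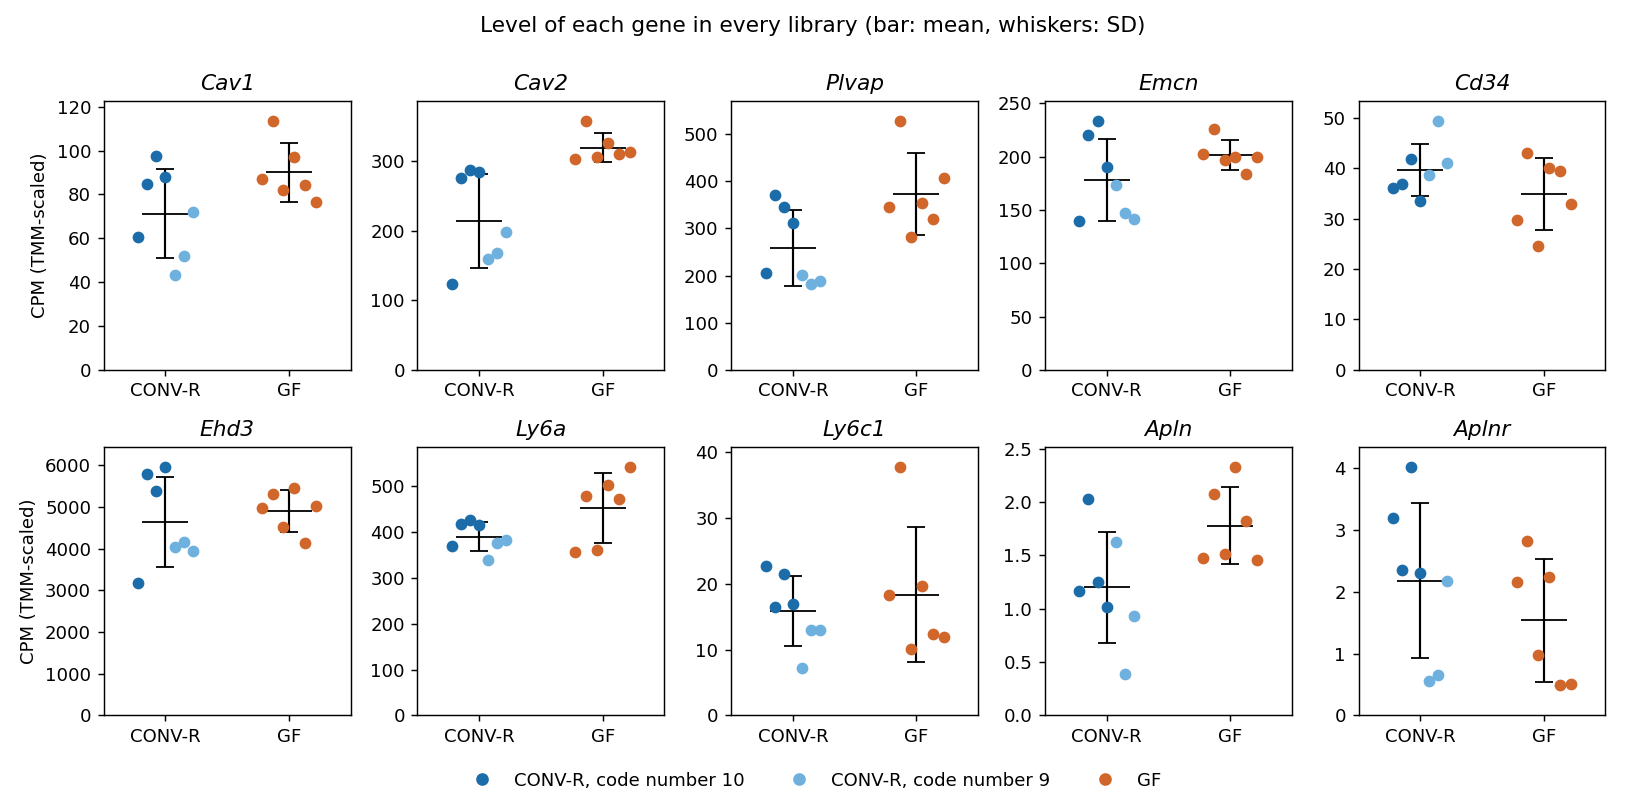
Each panel plots the CPM (vertical axis from 0) of 1 gene, with 1 point per library, the mean as a bar and the SD as whiskers, for CONV-R (n = 7, shaded by the code number in the library name) and GF (n = 6). The groups are apart only for Cav2, where the 6 GF points lie at 304 to 358 CPM and the CONV-R points at 124 to 287.

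Ly6a (Sca-1) and Ly6c1 encode small surface proteins with a lipid anchor that mark arterial and capillary endothelium, and lymphocytes and monocytes also carry proteins of this family. Ly6a stood at 339, 383 and 426 CPM in the lowest, median and highest CONV-R library and at 357, 477 and 543 CPM in GF. Of the GF libraries, 4 lay above the CONV-R range and 2, GF 8 and GF 10, lay within it at 357 and 361 CPM. Its log2 fold change was 0.22 ± 0.10 (adjusted p = 0.140, edgeR), with a 95% interval from -0.01 to 0.44.

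Ly6c1 stood at 7.24, 16.4 and 22.7 CPM in the lowest, median and highest CONV-R library and at 10.1, 15.3 and 37.8 CPM in GF. GF 9 held the 37.8 CPM and the next GF library 19.7. The log2 fold change of 0.21 ± 0.31 (adjusted p = 0.663, edgeR) became -0.14 without GF 9. Ly6a (74994877 to 74998031) and Ly6c1 (75044018 to 75048920) lie 45986 bases apart in the Ly6 cluster of chromosome 15, and near-identical copies make their counts uncertain. Of the 50-base stretches in the annotated Ly6c1 transcripts 32.8% also occurred in another gene, 21.5% in Ly6c2, and for Ly6a the share was 19%. Ly6c2, the copy carried by monocytes, was highest in CONV-R 1 at 27.9 CPM and stood at 1.80 to 5.23 CPM in all other libraries.

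Apelin is a peptide ligand of sprouting endothelium, and Aplnr encodes its receptor. Apln lies on chromosome X from 48025146 to 48034853 and Aplnr on chromosome 2 from 85136360 to 85139923. Both had few counts. Apln had 3 to 62 counts in the CONV-R libraries and 34 to 63 in those of GF, and stood at 0.39, 1.17 and 2.03 CPM in the lowest, median and highest CONV-R library. In GF it stood at 1.45, 1.67 and 2.33 CPM, with 2 libraries above the CONV-R range, and the log2 fold change was 0.52 ± 0.27 (adjusted p = 0.170, edgeR). Aplnr had as few as 5 counts in a CONV-R library and at most 70 in a GF library. It stood at 0.56, 2.30 and 4.03 CPM in the lowest, median and highest CONV-R library and at 0.49, 1.57 and 2.83 CPM in GF, with overlapping groups. The log2 fold change of -0.55 ± 0.50 (adjusted p = 0.440, edgeR) had a 95% interval from -1.63 to 0.53, which spans large changes in both directions at this depth. Apela, the other ligand of the receptor, had 0 counts in every library.

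Per kilobase of merged exon (GENCODE vM21 lengths), the order of levels was the same in both groups except for the apelin pair at the bottom. Mean levels in CONV-R were 706.5 ± 163.5 CPM per kb for Ehd3, 323.5 ± 26.2 for Ly6a, 129.9 ± 40.8 for Plvap and 64.1 ± 20.3 for Cav2. Emcn followed at 32.9 ± 7.06, Cav1 at 20.7 ± 5.87, Ly6c1 at 9.42 ± 3.18 and Cd34 at 5.44 ± 0.71 CPM per kb, with Aplnr at 0.59 ± 0.34 and Apln at 0.38 ± 0.17 (SD, n = 7). In CONV-R the ranges of Cav2 and Emcn, Emcn and Cav1, Cav1 and Ly6c1, Ly6c1 and Cd34, and Aplnr and Apln overlapped. In GF, Ehd3 stood at 747 ± 75.5, Ly6a at 376 ± 63.6, Plvap at 187 ± 43.6 and Cav2 at 95.8 ± 6.06 CPM per kb (SD, n = 6), and only the ranges of Cav1 and Ly6c1 and of the apelin pair overlapped. Of the genes named here as capillary markers, Cd34 was thus the lowest and Ly6a the highest on the per-kilobase scale. In CPM, without the length, mean Cd34 exceeded mean Ly6c1, at 39.6 against 15.8 in CONV-R and 34.9 against 18.4 in GF.

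The CONV-R libraries fell into subsets for several of these genes. Library names carry a code number whose meaning is not stated: CONV-R 1 to 4 carry 10, CONV-R 5 to 7 carry 9 and the GF libraries carry 6. Plvap averaged 308 CPM in the CONV-R libraries with number 10 and 191 in those with number 9, Cav1 82.8 and 55.7, Ly6c1 19.4 and 11.0, and Aplnr 2.97 and 1.13. Against number 9 alone, 4 genes rose in GF (edgeR): Plvap (log2 fold change 0.95, adjusted p = 0.00207), Cav2 (0.86, adjusted p = 8.52e-05), Cav1 (0.68, adjusted p = 0.0101) and Emcn (0.38, adjusted p = 0.00650). In that comparison 16.2% of all tested genes were higher and 17.9% lower. Against number 10 alone, 0 genes of the set passed in either direction (6.89% of all tested genes higher, 7.05% lower), with Cav2 at 0.40 (adjusted p = 0.207) and Plvap at 0.27 (adjusted p = 0.369, edgeR). With CONV-R 1 also left out, because hepatocyte and B cell markers were highest in it, CONV-R 2, 3 and 4 gave a log2 fold change of 0.18 for Cav2 (adjusted p = 0.0719, edgeR), a choice made after seeing the data. Since no number occurs in both groups, the code number and the group cannot be told apart.

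**Figure D2:**
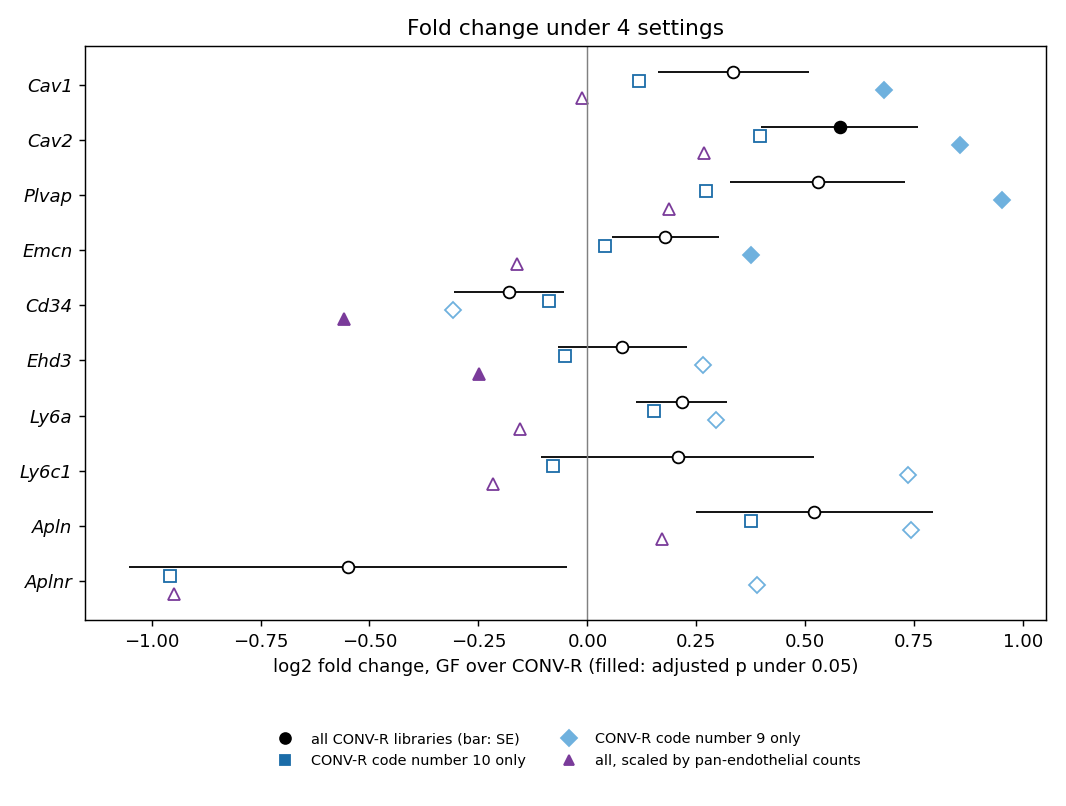
The horizontal axis gives the log2 fold change of GF over CONV-R for each gene, with all CONV-R libraries (SE bars), with those of 1 code number only, and with each library scaled by its pan-endothelial counts; filled symbols passed at adjusted p under 0.05. The diamonds against code number 9 lie furthest to the right for Cav1, Cav2, Plvap, Emcn, Ehd3, Ly6a, Ly6c1, Apln and Aplnr, and Cd34 lies left of 0 under all 4 settings.

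General endothelial genes were also higher in GF libraries. The summed level of 11 pan-endothelial genes, among them Cdh5 (VE-cadherin), Pecam1 and Tek, spanned 13150 to 23770 CPM (CONV-R) and 24720 to 27050 CPM (GF). CONV-R 1 was lowest at 13150 CPM, and it was also the lowest library for Cav2, Emcn and Ehd3. Of the 11 genes 6 rose and 0 fell, beside 11.4% higher and 12.7% lower over all tested genes. Against code number 10 alone 1 was higher and 0 lower (6.89% and 7.05% of all tested genes), with a median of 0.29. Against code number 9 alone 8 were higher and 0 lower (16.2% and 17.9%), with a median of 0.41. Hepatocyte markers summed to 1002 to 6107 CPM in CONV-R, highest in CONV-R 1, and to 564 to 885 CPM in GF, with 9 of 9 tested markers lower. In bulk samples fewer cells of a type and less RNA per cell cannot be told apart.

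Per 10000 pan-endothelial counts, Cav2 stood at 103.7 ± 19.6 in CONV-R and 124.9 ± 4.06 in GF, with overlapping ranges. On the same scale Cav1 stood at 35.4 ± 9.00 and 35.1 ± 4.08, Plvap at 127.2 ± 31.7 and 145 ± 28.9, and Cd34 at 20.1 ± 4.60 and 13.6 ± 2.53 (SD, n = 7 and n = 6). Scaled in this way the edgeR fit called 0 genes of the set higher and 2 lower, Cd34 (log2 fold change -0.56, adjusted p = 0.0186) and Ehd3 (-0.25, adjusted p = 0.0260). Cav2 then stood at 0.27 (adjusted p = 0.0638) and Cav1 at -0.01 (adjusted p = 0.949). This scaling moved the median over all genes to -0.39, with 2.54% of genes higher and 44.6% lower, so that 2 of 10 lower is below the background, and relative to that median Cd34 alone of these 2 was lower.

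**Figure D3:**
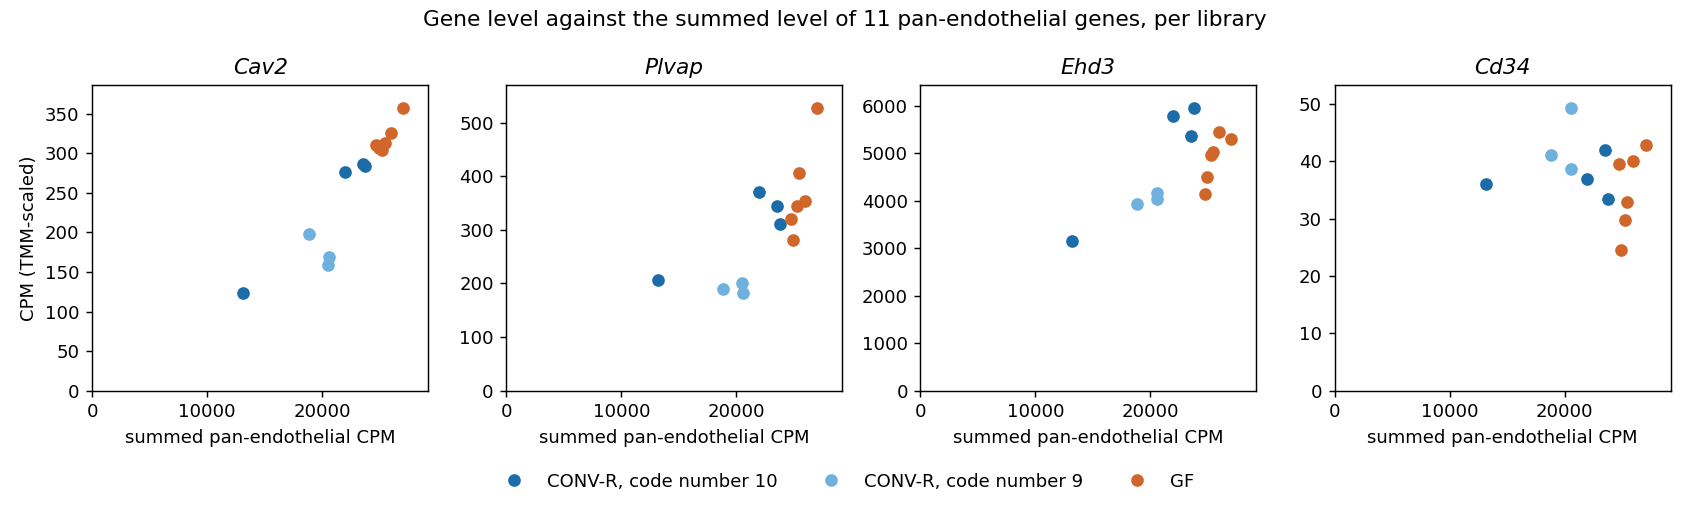
Each panel plots the CPM of 1 gene (vertical axis) against the summed CPM of 11 pan-endothelial genes (horizontal axis), with 1 point per library and both axes from 0. For Cav2 the libraries run from 124 CPM at the lowest endothelial sum of 13150 to 358 CPM at the highest of 27050, whereas Cd34 stays between 24.5 and 49.4 CPM across the same span.

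Markers of other cells differed between groups, between subsets of libraries or in single libraries. T and NK cell markers, whose cells can express Ly6a and Ly6c genes, summed to 40.5 to 233 CPM in CONV-R and 40.0 to 101.3 CPM in GF, highest in CONV-R 1 and GF 8, and 0 of 8 tested markers passed. B cell markers summed to 43.8 to 1255 CPM in CONV-R and 16.2 to 30.1 CPM in GF, so every GF library was lower, with 5 of 5 tested markers called. Neutrophil and monocyte markers summed to 193 to 2256 CPM in CONV-R and 95.9 to 219.9 CPM in GF, with 7 of 8 lower, and stood highest in CONV-R 5, 6 and 7. Stellate cell and fibroblast markers, whose cells express Cav1 and Cd34, summed to 31.7 to 134 CPM in CONV-R and 50.5 to 628 CPM in GF, with 2 of 10 higher, and the 628 CPM belonged to GF 11. Kupffer cell markers summed to 2355 to 7491 CPM in CONV-R and 2420 to 3828 CPM in GF, with 0 of 10 past the threshold. Their mean sum was nevertheless lower in GF, at 3072 against 4748 CPM in CONV-R, with a median log2 fold change of -0.63 and overlapping groups. Cholangiocyte markers summed to 45.1 to 246.0 CPM in CONV-R and 142.5 to 367 CPM in GF, with 3 of 5 higher. Lymphatic markers summed to 4.31 to 8.09 CPM in CONV-R and 6.62 to 10.25 CPM in GF. Of these Prox1 (0.55 ± 0.18, adjusted p = 0.0441, edgeR) and Pdpn (1.81 ± 0.60, adjusted p = 0.0411, edgeR) rose. Pdpn had only 2 to 88 counts, at 0.33 ± 0.22 CPM in CONV-R and 1.24 ± 1.36 in GF (SD), with overlapping groups. Mmrn1 stood at -0.02 and Ccl21a was at 0 in every library. The erythroid marker Alas2 was lower in GF (-0.92 ± 0.30, adjusted p = 0.0392, edgeR), and 4 globin genes had 0 counts throughout. Annotation and the handling of multi-mapping reads were not given, so the zeros of Ccl21a and the globin genes need not mean absent RNA. The part of these cells in the levels of the set was not tested.

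Within groups, the caveolin, diaphragm and Ehd3 levels varied together from library to library. After each group's mean was taken away, the Pearson correlation of log2 CPM over the 13 libraries was 0.91 for Cav2 and Ehd3, 0.87 for Plvap and Emcn, 0.81 for Cav1 and Cav2 and 0.84 for Ly6c1 and Aplnr. Cd34 stood apart, with r from -0.12 to 0.10 with the caveolins, Plvap, Emcn, Ehd3, Apln and Aplnr. These values are descriptions over libraries that share depth and endothelial content. Differences between the 2 CONV-R code numbers were not removed and remain in r. Cav2 averaged 243 CPM with number 10 and 175 with number 9, and Ehd3 5075 and 4045. Leaving out any 1 library, r fell at lowest to 0.85 for Cav2 and Ehd3 and to 0.75 for Cav1 and Cav2.

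Over all tested genes with a mean of at least 1 CPM, the profile most like that of Cav2 was that of Tmem30a, a subunit of phospholipid flippases (r = 0.99), and the second most like that of Ehd3 was that of Cavin2 (r = 0.97), after the potassium channel gene Kcnq1 (r = 0.98). Aplnr was most like Sparcl1 (r = 0.94), a matricellular gene of larger vessels. Ajap1 was most like Cav1 (r = 0.94), Ctso most like Plvap (r = 0.94), Trib3 most like Emcn (r = 0.96) and Ulk2 most like Cd34 (r = 0.91). For Ly6a the closest was Hsdl2 (r = 0.86), for Ly6c1 Sema7a (r = 0.91) and for Apln Gstm1 (r = 0.91, or 0.73 without CONV-R 6). All are values over 13 libraries with the group means removed, but not the differences between the CONV-R code numbers. Each was picked as a top r among all those genes, so a high value can arise by chance, which was not tested.

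**Figure D4:**
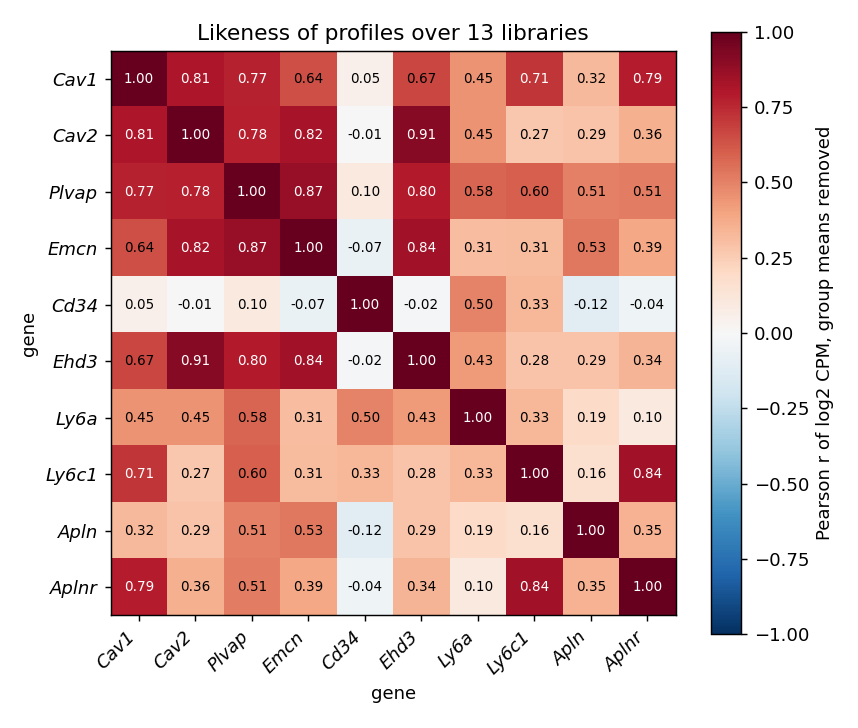
Each cell gives the Pearson r of log2 CPM between 2 genes of the set over 13 libraries after the mean of each group was removed (red positive, blue negative). Cav1, Cav2, Plvap, Emcn and Ehd3 form a block with r from 0.64 to 0.91, and the row of Cd34 is pale except for Ly6a (0.50) and Ly6c1 (0.33).

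Among other genes of the caveolar coat and neck, several were higher in GF, beside 11.4% of all tested genes. Of 12 tested genes in the caveola list, which includes Cav1, Cav2 and Ehd3, 5 rose and 0 fell, with a median of 0.28, and of its 9 genes outside the set 4 rose. Cavin2, listed under its older symbol Sdpr and encoding a cavin that helps bend the caveolar membrane, averaged 753 ± 206 CPM in CONV-R (SD, n = 7) and 1343 ± 142 in GF (SD, n = 6) and did not overlap between the groups. It rose by 0.83 ± 0.17 on the log2 scale (adjusted p = 0.00422, edgeR). Ehd4 (0.27 ± 0.05), Pacsin2 (0.33 ± 0.08), whose protein binds curved membrane at the caveolar neck, and Ehd1 (0.22 ± 0.07) rose too. Cavin1, listed as Ptrf and needed for caveola formation, stood at 0.22 ± 0.12 (adjusted p = 0.193, edgeR), and Ehd2 at 0.29 ± 0.25 (adjusted p = 0.421). Cav3 and Cavin4, the muscle forms, had at most 2 and 4 counts in any library. With pan-endothelial scaling Cavin2 still passed, at 0.52 (adjusted p = 0.00346, edgeR), whereas Ehd4, Pacsin2 and Ehd1 stood at -0.12, -0.05 and -0.17. The caveola list then had 1 gene higher and 2 lower with a median of -0.12. Over all tested genes that scaling gave 2.54% higher and 44.6% lower, with a median of -0.39. Against code number 10 the caveola list had 2 higher and 0 lower (6.89% and 7.05% of all tested genes).

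Genes of the surface, sprouting and interferon lists were also counted, beside 11.4% higher and 12.7% lower over all tested genes. Of the other sialomucin genes, Cd164 rose (0.26 ± 0.07, adjusted p = 0.0136, edgeR; -0.11 with pan-endothelial scaling) and Podxl stood at 0.21 ± 0.09 (adjusted p = 0.106). In the Ly6 list of 9 tested genes, Gpihbp1, which anchors lipoprotein lipase to capillaries, rose (0.59 ± 0.13) and Ly6c2 fell (-1.51 ± 0.49, or -0.72 with adjusted p = 0.0146 without CONV-R 1 and -0.60 with adjusted p = 0.0847 against CONV-R 2, 3 and 4 only, edgeR). Of 9 tested genes of sprouting tip cells, among which Apln is known to act, Angpt2 (0.69 ± 0.22) and Adm (0.32 ± 0.11, or -0.03 with pan-endothelial scaling) rose. With that scaling Angpt2 stood at 0.39 (adjusted p = 0.0762, edgeR), and neither passed with library totals or against code number 10. Cxcr4, which leukocytes also express, fell by 2.04 ± 0.40 on the log2 scale. Esm1, a tip cell marker, stood at -0.05 ± 0.42 (adjusted p = 0.952, edgeR). Of 14 interferon response genes, a pathway known to raise Ly6a, 2 rose and 0 fell, Rsad2 (0.37 ± 0.12) and Ifit1 (0.37 ± 0.12, or -0.02 with pan-endothelial scaling), with a median of 0.15. That 2 of 14 higher is near the 11.4% of all tested genes. Rsad2 stood at 0.03 with pan-endothelial scaling (adjusted p = 0.814, edgeR), and the interferon list then had 0 higher and 4 lower. With that scaling 44.6% of all tested genes were lower, so 4 of 14 is below the background. Against code number 10 this list had 5 higher and 0 lower (6.89% and 7.05% of all tested genes). Against code number 9 the list had 0 higher and 2 lower (16.2% and 17.9%).

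Basement membrane and continuous endothelium genes gave 2 of 14 higher and 0 lower, with a median of 0.33: Nid1, a basement membrane linker, rose by 0.47 ± 0.11 and Pecam1 by 0.41 ± 0.12 on the log2 scale. Col4a1 stood at 0.30 ± 0.15 (adjusted p = 0.157, edgeR) and Vwf at 0.55 ± 0.20 (adjusted p = 0.0619). Neither Nid1 (0.14, adjusted p = 0.0646) nor Pecam1 (0.08, adjusted p = 0.305) passed with pan-endothelial scaling (edgeR). Pecam1 is itself among the 11 genes used for that scaling, so its smaller change there is partly built in. The list had 0 genes higher under that scaling and against code number 10, and 8 against code number 9. Of all tested genes 2.54%, 6.89% and 16.2% were higher in these comparisons, in that order. In the opposite list, of sinusoidal differentiation, 7 of 17 rose and 1 fell (11.4% and 12.7% of all tested genes), also with a median of 0.33. With pan-endothelial scaling 3 rose and 3 fell with a median of 0.002. That scaling left 44.6% of all tested genes lower, with a median of -0.39. Against code number 10 the sinusoidal list had 2 higher and 1 lower (6.89% and 7.05% of all tested genes). Lyve1 (0.93 ± 0.13), Wnt2 (0.88 ± 0.175) and the zona pellucida domain gene Oit3 (0.66 ± 0.16) rose, and Tfec (-0.48 ± 0.08) fell. The sinusoidal scavenger receptor genes Stab1 and Stab2 averaged 4634 and 4495 CPM in CONV-R and 5724 and 5899 CPM in GF, so these defining markers were abundant in both groups. Of 11 large vessel genes 5 rose and 0 fell (11.4% and 12.7% of all tested genes), with Fbln2 at 1.59 ± 0.26, Fbln5 at 0.90 ± 0.23, Eln at 0.89 ± 0.24 and Gja4 at 0.78 ± 0.17. Against code number 10 the large vessel list had 3 higher and 0 lower (6.89% and 7.05%), and Fbln5 did not pass (0.61, adjusted p = 0.0811, edgeR). With pan-endothelial scaling 2 were higher and 1 lower, and Gja4 (0.40, adjusted p = 0.0898) and Eln (0.51, adjusted p = 0.127) no longer passed (edgeR). Their summed level spanned 589 to 1033 CPM (CONV-R) and 1091 to 1546 CPM (GF), so larger-vessel level and group cannot be told apart.

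**Figure D5:**
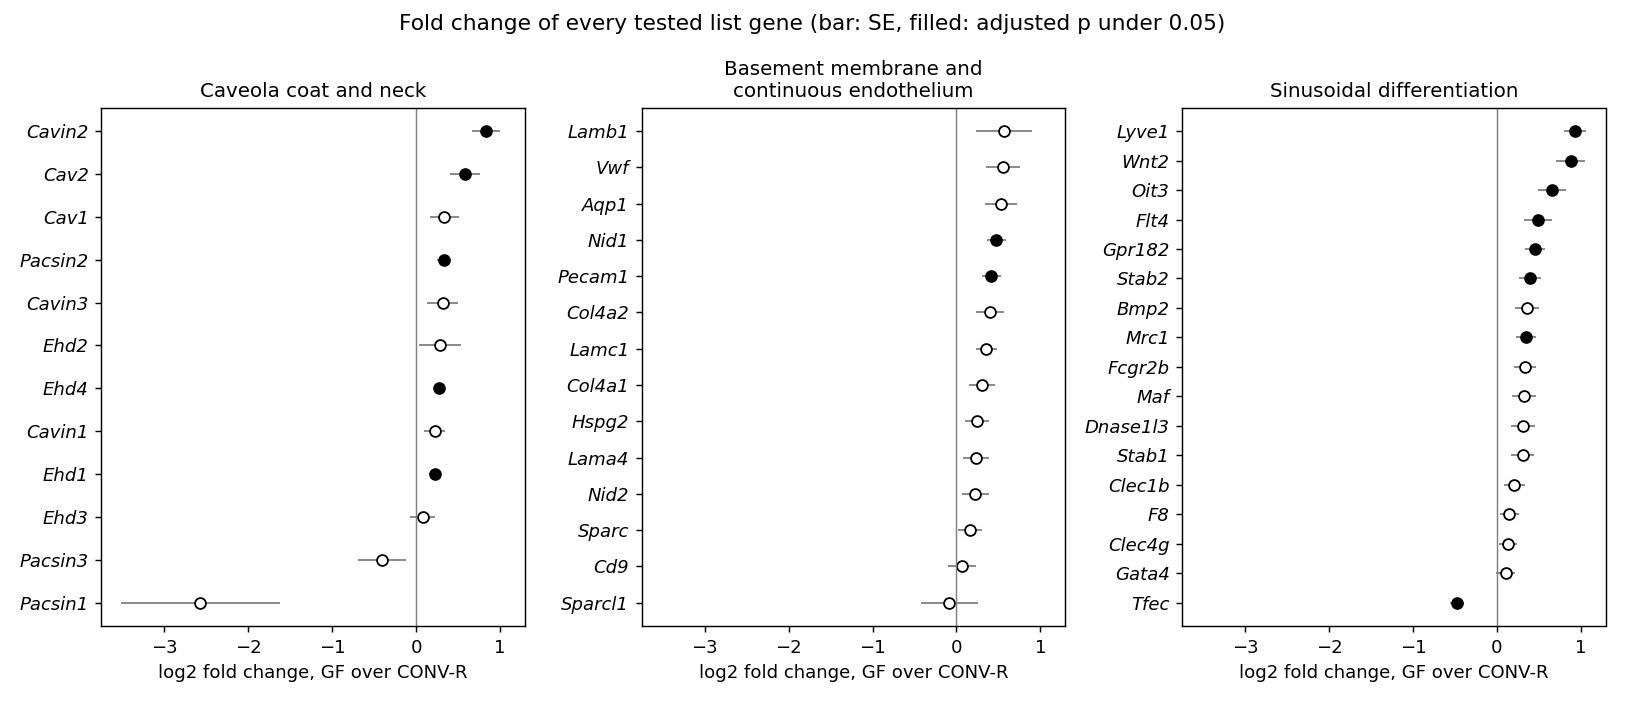
Points give the log2 fold change of GF over CONV-R of every tested gene in 3 lists, with SE bars and filled symbols for adjusted p under 0.05. The medians are 0.28 for caveola coat and neck, 0.33 for basement membrane and continuous endothelium and 0.33 for sinusoidal differentiation, beside 0.37 for the pan-endothelial genes. With pan-endothelial scaling, not plotted, they are -0.12, 0.006 and 0.002, beside -0.39 over all tested genes.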

How the data were processed

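Values are raw counts, deposited by the authors as a single table of gene symbols by libraries. The tools named in the submitters' processing notes are STAR 2.7.5a, featureCounts 2.0.1, DESeq2 1.42.1 and FastQC 0.11.9, with build mm10. Annotation, strand setting and the handling of multi-mapping reads were not given there. Reads of Cd34 and its overlapping gene Gm16897 (2 to 20 counts) and of Plvap and Gtpbp3 (187 to 883 counts) could therefore be shared.

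Counts were filtered with filterByExpr (minimum count 10, total 15), scaled by TMM and tested with edgeR 4.0.16 (robust quasi-likelihood, group only, R 4.3.3) over all genes. The standard error was derived from the log2 fold change and its F statistic. Members and lists were chosen with earlier results of these data known. Named list genes are up to 4 past the threshold with the smallest p, or the most abundant; further list genes in the text were chosen after their values were seen. Of the list genes, 4 were found under an older symbol. The labels give no pairing, and replicate numbers are not shared between the groups.

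On simulated data for this comparison (13915 genes), the fit recovered 40.3% of 67 genes changed 1.5-fold. It recovered 71.6% of 67 changed 2-fold and 87.9% of 66 changed 4-fold, and 5.67% of its calls were false. In the data 24.1% of all tested genes passed, a far larger share than was changed in the simulation, so these rates need not hold here. Alternatives were DESeq2 1.42.0, limma-voom (limma 3.58.1), other scalings, filters, a threshold of 0.01, covariates and left-out libraries.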

Additional observations from a re-analysis of the deposited data

Results flagged for a closer look

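A single library far from the rest of its group was searched for in 112 sets of values (each gene and each summed marker list, per group) and found in 13. By its set limit, the rule used would flag about 1 of 20 sets if values were normally distributed, which was not tested. Ly6c1 was at 37.8 CPM in GF 9 against at most 19.7 in the other GF libraries, and Ly6c2 at 27.9 CPM in CONV-R 1 against at most 5.23 in the others. CONV-R 1 was also the lowest for Nid1 (385 CPM, next 556) and Rsad2 (70.9, next 100.2), and the highest for summed markers of B cells (1255 CPM, next 60.6), T and NK cells (233, next 57.0) and platelets (49.9, next 33.4). GF 8 was the highest GF library for neutrophil and monocyte markers (219.9 CPM, next 126), B cell markers (30.1, next 20.5) and T and NK cell markers (101.3, next 48.9). GF 11 held 628 CPM of stellate cell and fibroblast markers (next 95.3) and 20.4 of mesothelial markers (next 2.39). Wnt2 was lowest in GF 12 at 244 CPM, with the next GF library at 388.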

How the results depend on the processing

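No paired analysis was run, because the labels give no pairing and the groups share no replicate number. Of the 10 genes, Cav2 was called in 11 of 29 alternatives, Plvap in 4, Cav1, Emcn, Cd34 and Ehd3 in 1 each, and Ly6a, Ly6c1, Apln and Aplnr in 0 (for Apln of 28, since the stricter filter removed it). Members higher in GF numbered 1 in the fit reported and 0 to 2 on leaving out 1 library, when 1013 to 1765 of all genes were higher and 1208 to 1972 lower. They numbered 2 with DESeq2 (12.2% of all tested genes higher) and 4 against code number 9 (16.2%). They numbered 0 against code number 10 (978 genes higher, 1000 lower) and at a threshold of 0.01 (629 and 579). The same held without CONV-R 1 and 7 (1438 and 1665) and against CONV-R 2, 3 and 4 only (1352 and 1364). They were also 0 with a covariate for hepatocyte (262 and 205 genes), Kupffer cell (914 and 790), large vessel (47 and 22) or pan-endothelial (558 and 557) levels. Of these, the hepatocyte, large vessel and pan-endothelial levels do not overlap between the groups, so covariate and group cannot be told apart. Over all genes 1593 were higher and 1764 lower in the fit reported, 971 and 2773 with library totals (median of all genes -0.11), and 353 and 6208 with pan-endothelial scaling, which gave 0 members higher and 2 lower. The fits without CONV-R 1 and 7, with CONV-R 2, 3 and 4 only and with the pan-endothelial covariate were chosen after seeing the data.

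Directions turned as follows (log2 fold changes; the cause was not tested). Ehd3 stood at -0.013 with library totals, -0.019 with limma-voom, -0.051 against code number 10, -0.054 without CONV-R 1 and 7, -0.073 with the Kupffer covariate, -0.22 with the large vessel covariate or against CONV-R 2, 3 and 4, -0.25 with pan-endothelial scaling, -0.27 with its covariate and -0.42 with the hepatocyte covariate. On leaving out 1 library Ehd3 ranged from -0.007 (without CONV-R 1) to 0.15, and Ly6c1 from -0.14 (without GF 9) to 0.32. Ly6c1 stood at -0.079 against code number 10, -0.074 with limma-voom, -0.032 with the Kupffer and -0.13 with the hepatocyte covariate, -0.22 with pan-endothelial scaling and -0.002 against CONV-R 2, 3 and 4. Emcn stood at -0.093 against CONV-R 2, 3 and 4, at -0.21, -0.042 and -0.083 with the hepatocyte, large vessel and pan-endothelial covariates, and at -0.16 with pan-endothelial scaling. Cav1 stood at -0.007 against CONV-R 2, 3 and 4, at -0.073 and -0.078 with the hepatocyte and large vessel covariates, and at -0.013 with pan-endothelial scaling. With the hepatocyte covariate Cav2 was at -0.006, Plvap at -0.022, Ly6c2 at 0.19 and Angpt2 at -0.11. With the large vessel covariate Ly6a was at -0.083 and Eln, itself among the genes summed in it, at -0.051. Ly6c2 was at 0.044 with the pan-endothelial covariate, and Aplnr at 0.39 against code number 9. With pan-endothelial scaling Ly6a was at -0.16, Ehd4 at -0.12, Pacsin2 at -0.053, Cd164 at -0.11, Adm at -0.025 and Ifit1 at -0.019. Depth limits Apln and Aplnr most, with as few as 3 and 5 counts in a library.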
